A study of Sus scrofa with 8 samples.

Results

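The genes described here move chloride, bicarbonate and sodium across the intestinal epithelium, or set how much of each is moved. The list had 9 genes: the hormone guanylin (GUCA2A) and its receptor (GUCY2C), the chloride channel CFTR, the carriers SLC12A2, SLC4A4, SLC26A3, SLC9A2 and SLC9A3, and the sodium pump subunit ATP1B1. A gene was found on the array through the RefSeq transcript accession of its probes, and the probe with the highest mean log2 signal over all arrays stood for it. This gave a probe for 7 of the 9 genes, out of 2813 named genes and 30554 probes tested on the array. SLC12A2, which loads chloride into the cell, and SLC9A3, a sodium/proton exchanger of the brush border, had no probe with such a name and are not analysed here.

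The study measured gene expression in the jejunum of Duroc × Landrace piglets from 4 litters, on 1-colour Agilent microarrays with 1 piglet per array. The weaned group held 4 piglets that were taken from the sow at 21 days of age, given a basal diet and sampled at 25 days. The suckling group held 4 piglets of the same breed cross and litters that stayed with the sow and were sampled at the same age. Each array held RNA of a segment of the whole wall of the middle jejunum, so epithelium, muscle, vessels and immune cells were measured together, and the replicate numbers are not tied to litters in the labels.

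Salt and water move across the gut wall in both directions. In crypt cells, chloride enters from the blood side through SLC12A2 and leaves into the lumen through CFTR, which guanylin and other signals open by way of cyclic nucleotides, and water follows. On the villus, sodium/proton exchange and chloride/bicarbonate exchange at the brush border together take up salt, and the sodium pump at the base of the cell keeps the sodium gradient that drives both processes. The balance between them is of interest after weaning, when diarrhoea is common in piglets. The comparison asks whether transcripts of these transporters differ between weaned and suckling piglets.

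None of the 7 genes passed the test between weaned and suckling piglets. Levels are given as log2 of the processed intensity minus the array's own 75th percentile, so 0 marks that percentile, and differences are weaned minus suckling on the same scale. By limma over all probes, 0 of the 7 genes had an adjusted p under 0.05 and 0 had an unadjusted p under 0.05, against 0.177% and 12.3% of all tested probes. The levels of weaned and suckling piglets overlapped in all 7, whereas the groups did not overlap for 7.76% of all tested probes, with weaned higher for 4.93% and lower for 2.83%. The difference was above 0 for SLC26A3 and GUCA2A and below 0 for SLC4A4, GUCY2C, CFTR, SLC9A2 and ATP1B1. Its median over the 7 genes was -0.27, against 0.04 over all tested probes.

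**Figure D1:**
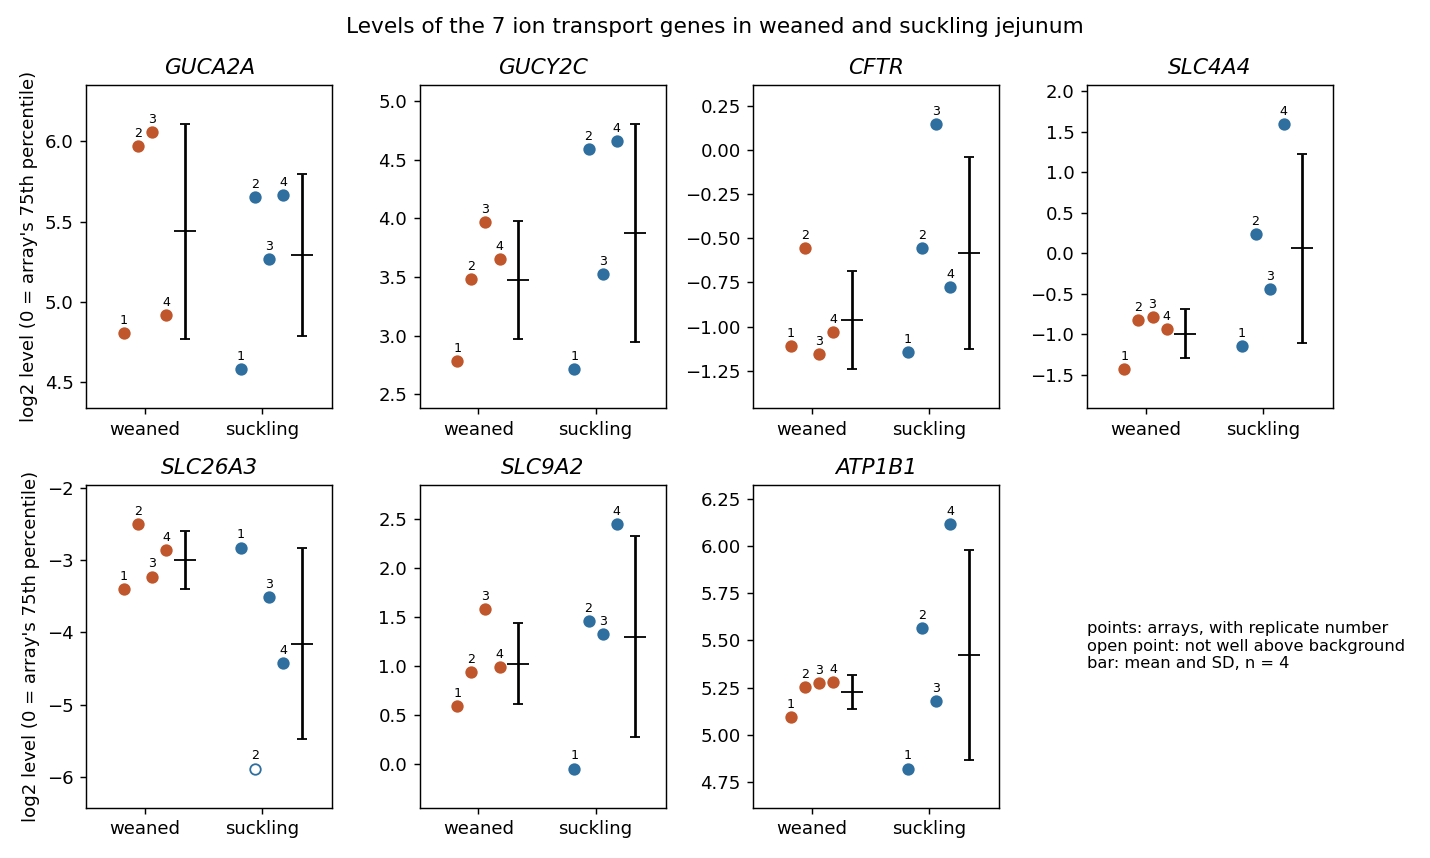
Level of each of the 7 genes on every array, as log2 of the processed intensity minus the array's 75th percentile, with weaned piglets left of suckling piglets; points are single arrays and bars are the mean and SD (n = 4 per group). The points of weaned and suckling piglets overlap in every panel, and the suckling points are the more spread in all panels except that of GUCA2A.

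Before the single genes, some facts of the whole array set bear on all of them. On each array, 67.6% to 71.0% of probes were well above background. The 75th percentile of processed intensity lay between 316.75 and 390 in weaned arrays and between 245 and 395 in suckling arrays, and the lowest value belonged to suckling replicate 1. All weaned arrays lay on one slide and all suckling arrays on the other, and with this layout the slide and the weaning cannot be told apart. FABP2, the fatty acid binding protein of small intestinal enterocytes, was at 6.68 ± 0.44 in weaned and 7.01 ± 1.16 in suckling piglets (SD, n = 4 each), and the epithelial marker EPCAM was at 6.75 ± 0.21 in weaned and 6.79 ± 0.21 in suckling piglets. The summed signal of the 3 epithelial markers EPCAM, CDH1 and KRT8 is in units of each array's 75th percentile. It was 432.9 to 619.1 in weaned and 349.4 to 408.2 in suckling arrays, with no overlap. KRT8, the brightest of the 3, had a difference of 0.70, against -0.043 for EPCAM and 0.086 for CDH1. Taken alone, each of the 3 genes overlapped between the groups. Other markers that define enterocytes and muscle, VIL1 and MYH11, had no tested probe. Both ileal markers had a tested probe. FABP6, the bile acid binding protein of the ileum, ranged from -2.77 to 1.82 in weaned arrays and from -3.92 to -0.91 in suckling arrays. The ileal bile acid carrier SLC10A2 had -3.78, -2.99, -3.30 and -1.50 in weaned arrays 1 to 4, against -4.27, -4.57, -5.90 and -7.73 in suckling arrays 1 to 4. It was well above background on 4 weaned and 2 suckling arrays, its groups did not overlap, and its limma adjusted p was 0.232. The part of ileal cells in the values below was not tested.

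Guanylin is a peptide that epithelial cells release into the lumen, where it binds GUCY2C, a guanylate cyclase of the brush border that is also the receptor of the heat-stable toxin of diarrhoea-causing Escherichia coli. GUCA2A had 4.81, 5.97, 6.06 and 4.92 in weaned arrays 1 to 4, against 4.59, 5.65, 5.27 and 5.66 in suckling arrays 1 to 4. Weaned arrays 2 and 3 lay above every suckling array, and the other 2 weaned arrays lay within the suckling range. The means were 5.44 ± 0.67 in weaned and 5.29 ± 0.51 in suckling piglets (SD, n = 4 each). The difference was 0.15 (SE 0.36, 95% confidence interval -0.67 to 0.96, limma adjusted p = 0.899). GUCA2A was the single gene of the 7 whose SD was smaller in suckling piglets.

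GUCY2C, the receptor, had 2.78, 3.48, 3.97 and 3.65 in weaned arrays 1 to 4, against 2.72, 4.59, 3.53 and 4.66 in suckling arrays 1 to 4. Suckling arrays 2 and 4 were higher than all weaned arrays, and suckling array 1 was the lowest of all 8. The means were 3.47 ± 0.50 in weaned and 3.87 ± 0.93 in suckling piglets (SD, n = 4 each), a difference of -0.40 (SE 0.45, 95% confidence interval -1.41 to 0.61, limma adjusted p = 0.754). Without suckling array 4 it was -0.14, and without suckling array 1 it was -0.79. With the planned normexp background correction of the raw spot signals it was -0.0015, and with a normexp correction added after seeing the data -0.28. Here and below, the planned correction took in local backgrounds of up to 65246 in suckling array 4 and 17305 in weaned array 1, which shifted the scaling of these arrays. The added correction put the array median at flagged backgrounds. A second GUCY2C probe gave -0.12 (95% confidence interval -0.94 to 0.70). In whole tissue, fewer cells of a type and less RNA per cell cannot be told apart, here and in the values that follow.

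Ligand and receptor can also be set against each other within an array, where the scaling between arrays cancels. A probe's brightness depends on its sequence, so only the change of this difference between arrays carries information, not its size. GUCA2A minus GUCY2C was 2.03, 2.49, 2.09 and 1.26 in weaned arrays 1 to 4, against 1.87, 1.06, 1.74 and 1.01 in suckling arrays 1 to 4. Weaned arrays 1 to 3 were above every suckling array, and weaned array 4 lay among them. This order holds for the chosen GUCY2C probe. The means were 1.97 ± 0.51 in weaned and 1.42 ± 0.45 in suckling piglets (SD, n = 4 each), 0.55 apart. The second GUCY2C probe had 2.09, 2.39, 2.94 and 2.81 in weaned arrays 1 to 4, against 1.87, 3.26, 2.22 and 3.36 in suckling arrays 1 to 4. Set against that probe, GUCA2A of weaned array 1 lay within the suckling range, and the group means were closer together. No test of these differences was run.

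CFTR is the chloride and bicarbonate channel of the apical membrane that opens after phosphorylation by cyclic nucleotide-dependent kinases. It had -1.11, -0.56, -1.16 and -1.03 in weaned arrays 1 to 4, against -1.14, -0.55, 0.15 and -0.78 in suckling arrays 1 to 4. Most arrays of both groups lay close together, and suckling array 3 stood above the rest. The means were -0.96 ± 0.28 in weaned and -0.58 ± 0.54 in suckling piglets (SD, n = 4 each). The difference was -0.38 (SE 0.28, 95% confidence interval -1.003 to 0.24, limma adjusted p = 0.608), and without suckling array 3 it was -0.14 (limma adjusted p = 0.872). A second CFTR probe ranged from -1.70 to -1.03 in weaned arrays and from -1.33 to -0.47 in suckling arrays. On that probe 3 of the 4 weaned arrays lay below every suckling array, and the difference was -0.46 (95% confidence interval -0.96 to 0.03, limma adjusted p = 0.435).

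SLC4A4, the sodium bicarbonate cotransporter that brings bicarbonate into the cell from the blood side, had the lowest difference of the 7. Its levels were -1.42, -0.82, -0.78 and -0.93 in weaned arrays 1 to 4, against -1.14, 0.24, -0.44 and 1.59 in suckling arrays 1 to 4. Suckling arrays 2, 3 and 4 were above all weaned arrays, whereas suckling array 1 was below 3 of the 4. The weaned arrays lay within a narrow band, at -0.99 ± 0.30, and the suckling arrays were widely spread, at 0.063 ± 1.17 (SD, n = 4 each). The difference was -1.05, a weaned level 0.482 times the suckling level (SE 0.51, 95% confidence interval -2.20 to 0.089, limma adjusted p = 0.443). Without suckling array 4 it was -0.54 (limma adjusted p = 0.603), and without suckling array 1 it was -1.45 (limma adjusted p = 0.108).

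SLC26A3 exchanges luminal chloride for bicarbonate at the brush border, and its loss in humans causes congenital chloride diarrhoea. It had the highest difference of the 7 and a dim probe. Its processed intensities were 30, 68.8, 41.7 and 52.8 in weaned arrays 1 to 4, against 34.6, 6.63, 34.8 and 15.9 in suckling arrays 1 to 4. The spot of suckling array 2 was not well above background, and the spots of the other 7 arrays were. On the scaled log2 scale these were -3.40, -2.50, -3.23 and -2.86 in weaned arrays, against -2.82, -5.89, -3.50 and -4.42 in suckling arrays. Suckling array 1 lay within the weaned range, and the other 3 suckling arrays lay below all weaned arrays.

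The SLC26A3 means were -3.00 ± 0.40 in weaned and -4.16 ± 1.32 in suckling piglets (SD, n = 4 each). The difference was 1.16, a weaned level 2.24 times the suckling level (SE 0.58, 95% confidence interval -0.14 to 2.47, limma adjusted p = 0.456). It was 0.59 without suckling array 2 (limma adjusted p = 0.664) and 1.61 without suckling array 1 (limma adjusted p = 0.122). With the same planned normexp background correction it was 0.073 (limma adjusted p = 1), and with a normexp correction added after seeing the data it was 0.26 (limma adjusted p = 0.729). Both normexp runs added an offset of 50 to every corrected signal, an amount near the SLC26A3 intensities. That setting alone makes log2 differences of a dim probe smaller. These values therefore cannot show whether the difference depends on the background. A second SLC26A3 probe was well above background on 2 weaned arrays and on no suckling array, and so was too dim to be tested. Its levels ranged from -5.90 to -4.24 in weaned arrays and from -7.98 to -5.91 in suckling arrays, where weaned arrays 3 and 4 and all suckling arrays were not well above background. No fold is given for that probe.

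CFTR, which secretes chloride, was also set against SLC26A3, which absorbs it, within each array, a comparison chosen after the values were seen. CFTR minus SLC26A3 lay between 1.83 and 2.29 in weaned arrays, against 1.68, 5.33, 3.65 and 3.65 in suckling arrays 1 to 4. Suckling array 1 lay below the weaned arrays and the other 3 suckling arrays lay above them. The means were 2.03 ± 0.20 in weaned and 3.58 ± 1.49 in suckling piglets (SD, n = 4 each), a difference of -1.54. It was -0.96 without suckling array 2, where the SLC26A3 spot was not well above background, and -2.18 without suckling array 1. It was -0.35 with the planned background correction and -0.51 with the added one. Both corrections added 50 to each signal, which by itself narrows the log2 values of the dim SLC26A3 probe.

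SLC9A2 is an apical sodium/proton exchanger, a relative of SLC9A3. It had 0.60, 0.94, 1.59 and 0.99 in weaned arrays 1 to 4, against -0.042, 1.46, 1.32 and 2.45 in suckling arrays 1 to 4. All weaned arrays lay between the lowest suckling array, replicate 1, and the highest, replicate 4. The means were 1.03 ± 0.41 in weaned and 1.298 ± 1.02 in suckling piglets (SD, n = 4 each), with a difference of -0.27 (SE 0.47, 95% confidence interval -1.32 to 0.78, limma adjusted p = 0.849). The direction turned without suckling array 4, to 0.11, and the difference was -0.72 without suckling array 1. A second SLC9A2 probe gave -0.097 (95% confidence interval -1.57 to 1.38).

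ATP1B1 encodes the beta subunit that carries the sodium pump to the membrane. It had 5.09, 5.25, 5.27 and 5.28 in weaned arrays 1 to 4, against 4.82, 5.57, 5.18 and 6.12 in suckling arrays 1 to 4. The weaned values differed little from each other and lay within the suckling range. The means were 5.22 ± 0.089 in weaned and 5.42 ± 0.56 in suckling piglets (SD, n = 4 each), a difference of -0.20 (SE 0.26, 95% confidence interval -0.78 to 0.39, limma adjusted p = 0.796). The direction turned without suckling array 4, to 0.036. A second ATP1B1 probe gave -0.22 (95% confidence interval -0.90 to 0.47).

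**Figure D2:**
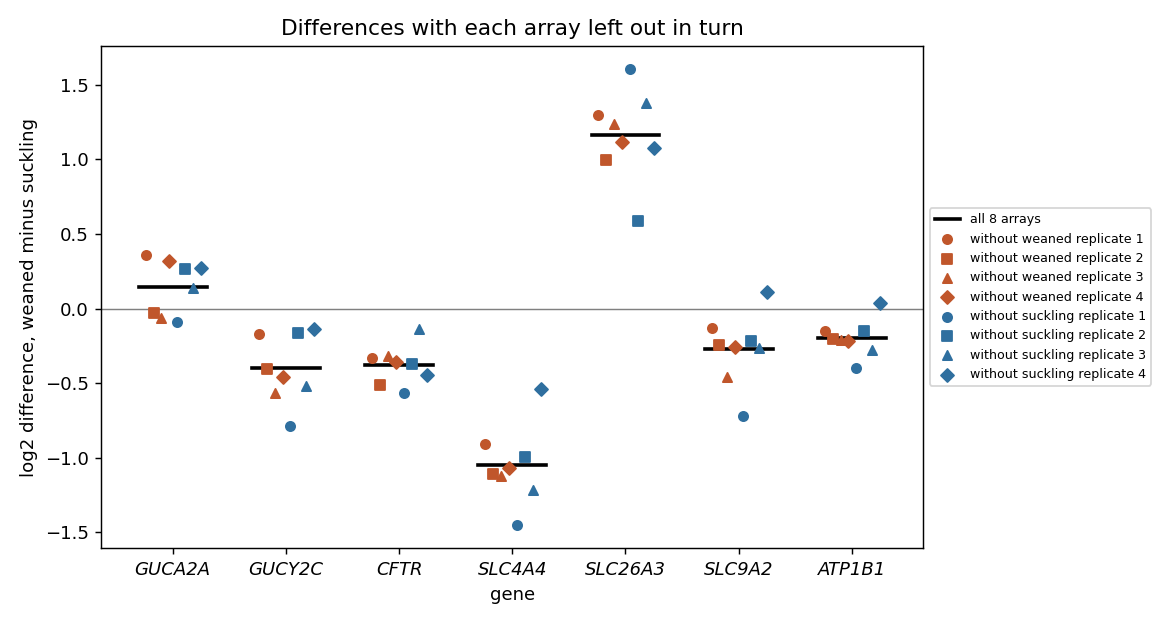
Difference between weaned and suckling piglets in log2 for the 7 genes with all 8 arrays and with each array left out in turn. Leaving out suckling array 1 moved the difference of CFTR to -0.57 and that of SLC26A3 to 1.61, and leaving out suckling array 4 turned SLC9A2 to 0.11 and ATP1B1 to 0.036.

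An exact two-sided permutation test, run on each gene over all 70 ways to arrange the arrays, gave p between 0.114 for SLC4A4 and 0.771 for GUCA2A, where 0.0286 is the smallest p that 4 against 4 arrays allow. Without suckling array 1, whose FABP2 level of 5.61 was the lowest of the 8, the limma adjusted p of the 7 genes lay between 0.108 for SLC4A4 and 0.905 for GUCA2A. Again 0 of the 7 passed, while 1.82% of all tested probes did. In this run GUCA2A turned, to -0.089. GUCA2A turned in 3 of the runs with 1 array left out, also without weaned array 2 and without weaned array 3. The 95% confidence intervals above show how large a difference the 8 arrays still allow. They reached -1.41 for GUCY2C, -1.32 for SLC9A2, -2.20 for SLC4A4 and 2.47 for SLC26A3.

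The suckling piglets differed among themselves more than the weaned piglets did for most of these genes. The SD was larger in suckling piglets for 6 of the 7 genes, as it was for 68.1% of all tested probes. The median SD of the 7 genes was 0.40 in weaned and 0.93 in suckling piglets, and over all tested probes it was 0.25 in weaned and 0.33 in suckling piglets. Without suckling array 1 it was still larger in suckling piglets for 6 of the 7 genes, against 50.6% of all tested probes. These counts are a description with no test.

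SLC4A4, SLC9A2, ATP1B1 and GUCY2C had similar orders of the arrays. Over the 8 arrays their 6 pairs had Pearson correlations between 0.847 and 0.935, with a median of 0.89. All pairs of 2811 named genes had a median of 0.017, and 2.87% of them reached 0.8. Spearman's rho of the 6 pairs lay between 0.762 and 0.952. With each group's mean removed, the 6 pairs lay between 0.868 and 0.991 over the pooled arrays. Several pairs leaned on 2 suckling arrays. Without suckling arrays 2 and 4, SLC4A4 had r = 0.479 with ATP1B1, 0.690 with SLC9A2 and 0.723 with GUCY2C. Without suckling arrays 1 and 4, r was 0.601 for SLC9A2 with ATP1B1, 0.834 for SLC9A2 with GUCY2C and 0.938 for ATP1B1 with GUCY2C. The arrays share their scaling, and the pairs were picked after the values were seen, so the correlations are given with no p.

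**Figure D3:**
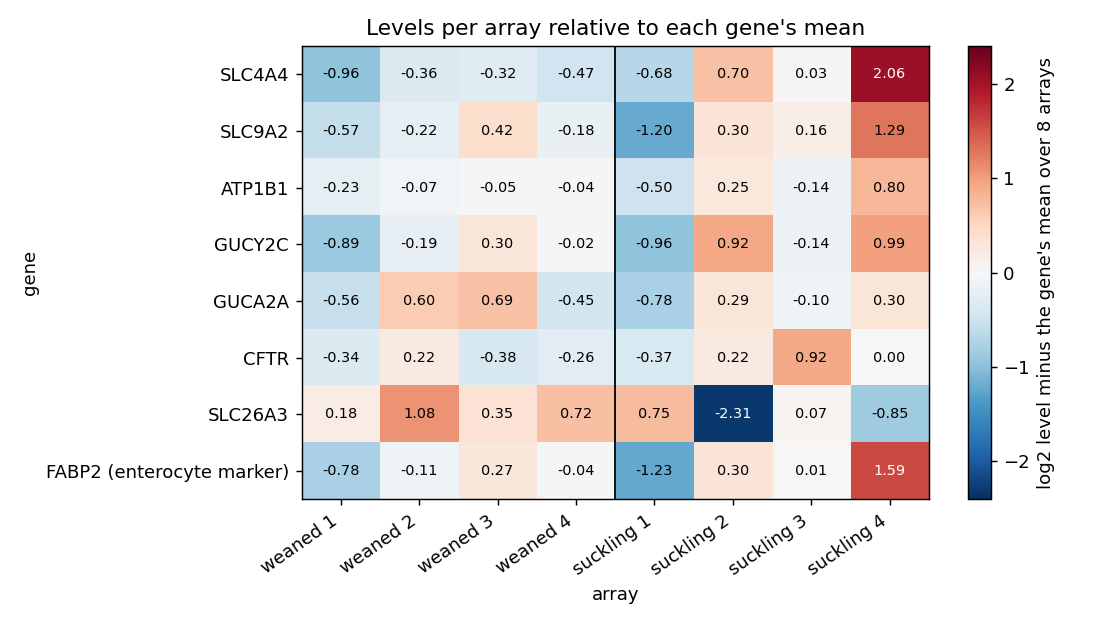
Level of the 7 genes and of the enterocyte marker FABP2 on each array, as log2 minus the gene's mean over the 8 arrays, with weaned arrays left of suckling arrays. SLC9A2, ATP1B1, GUCY2C, SLC4A4 and FABP2 are high in suckling array 4 and low in suckling array 1, and SLC26A3 is lowest in suckling array 2.

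The same 4 genes had high correlations with the enterocyte marker FABP2, which had 6.06, 6.74, 7.12 and 6.81 in weaned arrays 1 to 4, against 5.61, 7.15, 6.86 and 8.43 in suckling arrays 1 to 4. Across the 8 arrays FABP2 had a Pearson correlation of 0.982 with SLC9A2, 0.957 with ATP1B1, 0.907 with GUCY2C and 0.895 with SLC4A4, and Spearman's rho was 0.976, 0.881, 0.976 and 0.929 in the same order. Without suckling arrays 1 and 4, the 2 farthest from the FABP2 median, Pearson's r was 0.922, 0.741, 0.917 and 0.785. SLC9A2 stood above 99.9% of 2811 named genes in this correlation, and SLC4A4 above 97.4%. The part of enterocyte content in the levels of these genes was not tested.

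The correlations of the other 3 genes with FABP2 were lower. GUCA2A had r = 0.652 (rho 0.643), CFTR 0.258 (rho 0.357) and SLC26A3 -0.495 (rho -0.738). Without suckling arrays 1 and 4 these were 0.660, 0.249 and -0.377. SLC26A3 also ran against GUCY2C (r = -0.711) and SLC4A4 (r = -0.654). Both values rest on suckling arrays 2 and 4, since without them r was -0.0043 and -0.098. These 7 relations with FABP2 were computed as a description of the 8 arrays. The order of the genes depended on the marker. With FABP1, another fatty acid binding protein of enterocytes, GUCA2A had 0.701 and SLC4A4 0.698. With EPCAM, GUCA2A had 0.751 and CFTR 0.669, above SLC9A2 (0.657), GUCY2C (0.537), SLC4A4 (0.483) and ATP1B1 (0.452).

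Among 2766 other named genes, those with the profile most like each of the 7 were looked up by Pearson's r over the 8 arrays. SLC9A2 was closest to SAR1B (0.991), a GTPase needed for the export of chylomicrons, and POR (0.983), the electron donor of cytochrome P450 enzymes. ATP1B1 was closest to the plasma membrane calcium pump ATP2B1 (0.984) and to LCLAT1 (0.983), an enzyme that remodels cardiolipin. GUCY2C was closest to the gluconeogenic enzyme FBP1 (0.987) and to DHDH (0.986), a dihydrodiol dehydrogenase. SLC4A4 was closest to alpha-fetoprotein, AFP (0.972), and to the growth factor GDF9 (0.960).

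GUCA2A was closest to PCSK1 (0.949), a protease that processes prohormones, and to ACR (0.942), which encodes acrosin. CFTR had lower best values, 0.911 with CBLN4, a secreted cerebellin, and 0.858 with F3, the tissue factor of coagulation. SLC26A3 was closest to NCEH1 (0.955), a cholesterol ester hydrolase, and to AGK (0.954), a mitochondrial lipid kinase. Its value with NCEH1 was 0.615 without suckling arrays 2 and 4.

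Of 98 further gene symbols of epithelial ion transport and its control, 25 had a named probe and 22 were tested. Some of the 98 may be second names of a listed gene. By limma, 0 of the 22 passed adjusted over all tested probes, and 2 had an unadjusted p under 0.05. Of all tested probes, 0.177% passed and 12.3% had an unadjusted p under 0.05. The same 2 genes, FXYD2 and CHRM3, were those whose groups did not overlap, beside the 7.76% of all tested probes. The mean was higher in weaned piglets for 13 of the 22 genes and lower for 9, with a median difference of 0.16 against 0.04 over all tested probes.

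**Figure D4:**
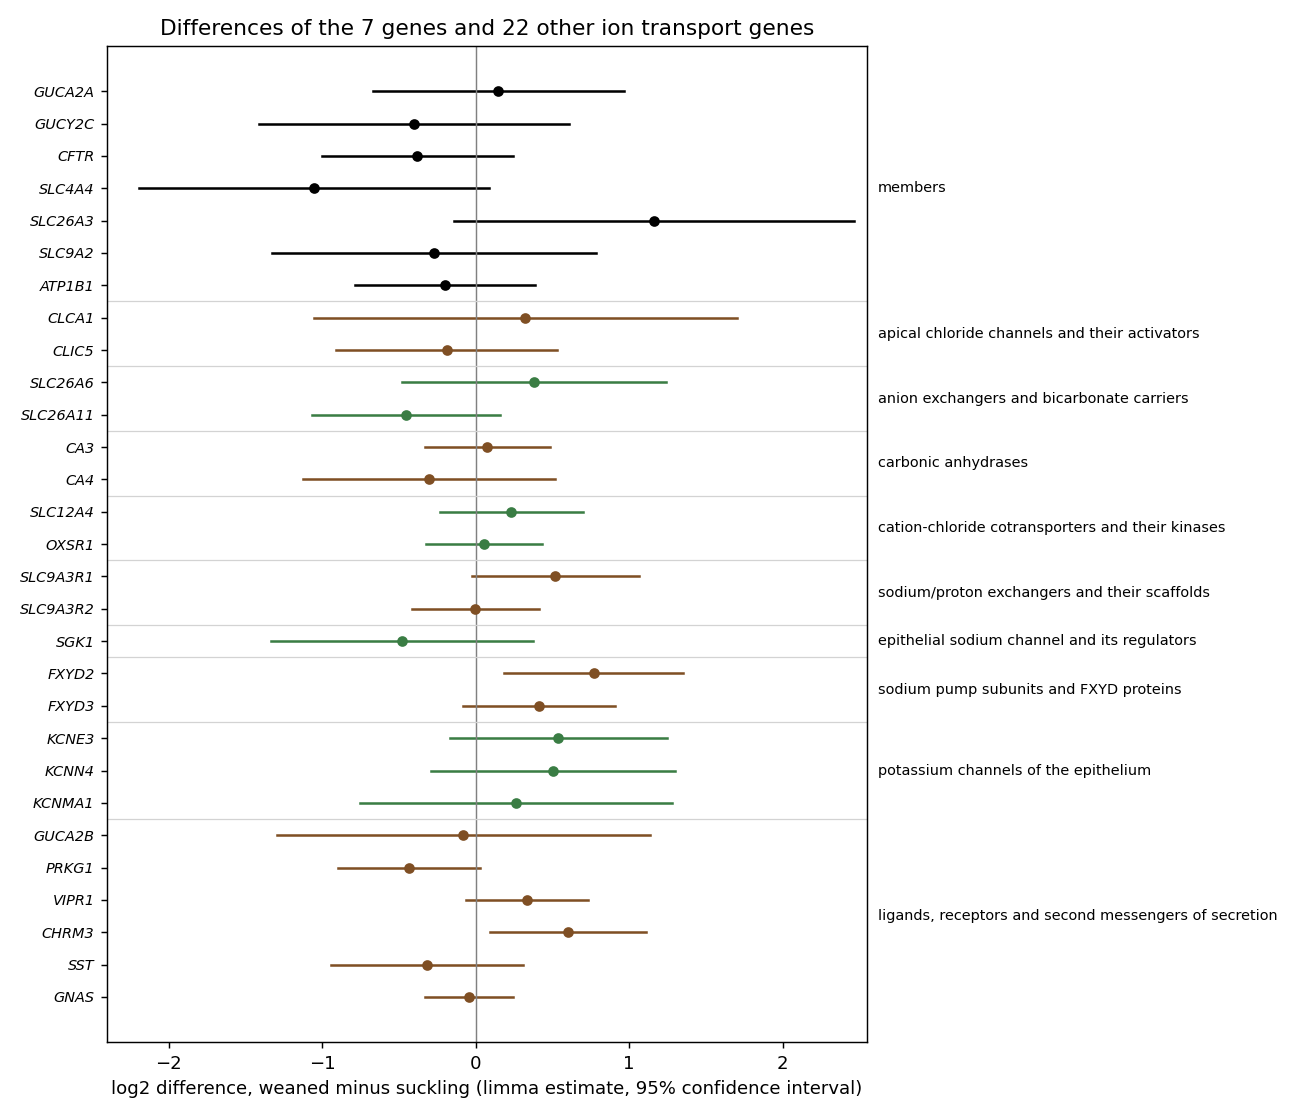
Difference between weaned and suckling piglets in log2 with its 95% confidence interval for the 7 genes and for the 22 further ion transport genes that were tested. The 95% interval lies above 0 for FXYD2 and CHRM3 and includes 0 for the other genes, and no gene passed after adjustment over all tested probes.

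FXYD2 encodes the gamma subunit that modulates the sodium pump. It had -3.71, -2.62, -3.51 and -3.10 in weaned arrays 1 to 4, against -4.43, -3.84, -3.96 and -3.80 in suckling arrays 1 to 4, so every weaned array was above every suckling array. The difference was 0.77 (SE 0.26, limma adjusted p = 0.297). The probe is dim, and the difference was 0.13 with the added background correction and 0.0059 with the planned one (limma adjusted p = 0.774 and 1). Both corrections added 50 to each signal, which by itself makes log2 differences of a dim probe smaller. The other gene of that list described here, FXYD3, had 0.41 and was named after its value was seen.

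CHRM3 encodes the muscarinic receptor through which acetylcholine drives secretion in epithelium and contraction in smooth muscle. It had -1.25, -1.37, -1.40 and -1.25 in weaned arrays 1 to 4, against -1.78, -1.83, -1.49 and -2.57 in suckling arrays 1 to 4, again with no overlap. The difference was 0.60 (SE 0.23, limma adjusted p = 0.342). It was 0.38 without suckling array 4, 0.38 with the added background correction and 0.14 with the planned one. The summed signal of 4 smooth muscle markers ranged from 70.4 to 240.9 in weaned arrays and from 127.6 to 277.5 in suckling arrays, in units of each array's 75th percentile. The part of muscle content in the CHRM3 values was not tested.

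Beside CHRM3, 5 ligands, receptors and second messengers of secretion were tested, and 4 of the 6 in that list had a difference below 0. Uroguanylin, GUCA2B, the second ligand of GUCY2C, had 0.71, 1.38, 1.92 and 0.14 in weaned arrays, against -0.40, 1.78, 1.64 and 1.44 in suckling arrays. Its groups overlapped, and the difference was -0.080, with 1 of its 2 tested probes below 0. PRKG1, a cyclic GMP-dependent kinase, had -0.43, the inhibitory peptide somatostatin, SST, had -0.32 (-0.085 without suckling array 2), and GNAS, the stimulatory G protein that cholera toxin locks, had -0.044. VIPR1, a receptor of vasoactive intestinal peptide, had 0.33, with 1 of its 2 tested probes above 0. These 5 genes lie outside the naming rule and were chosen after their values were seen.

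Among sodium/proton exchangers and their scaffolds, SLC9A3R1, the scaffold NHERF1 that anchors SLC9A3 and CFTR at the brush border, had 5.38, 5.57, 5.69 and 5.75 in weaned arrays 1 to 4, against 4.40, 5.15, 5.19 and 5.57 in suckling arrays 1 to 4. Weaned arrays 3 and 4 were above all suckling arrays, and suckling array 4 was level with weaned array 2. The difference was 0.52 (SE 0.24, limma adjusted p = 0.429), and 0.30 without suckling array 1. The second scaffold, SLC9A3R2, had -0.0027 and was named after its value was seen.

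The 3 tested potassium channel genes, whose products recycle potassium and keep the driving force for chloride exit, all had differences above 0, with a median of 0.51. KCNE3, a subunit of the basolateral channel that cyclic AMP opens, had 0.54 (SE 0.31, limma adjusted p = 0.525), and 0.30 without suckling array 4. Outside the naming rule, the calcium-activated channels KCNN4 and KCNMA1 had 0.51 and 0.26, and KCNN4 had 0.28 without suckling array 4. KCNMA1 was dim, well above background on 2 weaned and 2 suckling arrays. It turned to -0.15 without suckling array 4, -0.32 with the planned background correction and -0.11 with the added one. SGK1, a kinase that raises sodium channel activity, was the single tested gene of its list, at -0.48 (SE 0.38, limma adjusted p = 0.643). Its difference was -0.11 without suckling array 4 and -0.80 without suckling array 2.

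In each of the remaining lists 2 genes were tested. SLC26A11, an anion exchanger, had -0.45 (SE 0.27, limma adjusted p = 0.538), and SLC26A6, the oxalate and bicarbonate exchanger of the brush border, had 0.38. CA4, a membrane-bound carbonic anhydrase, had -0.30 (SE 0.36, limma adjusted p = 0.775), and CA3 had 0.076. SLC12A4, a potassium chloride cotransporter, had 0.23 (SE 0.21, limma adjusted p = 0.686), and OXSR1, a kinase that switches SLC12A2 on, had 0.054. CLIC5 had -0.19 (SE 0.32, limma adjusted p = 0.847), and CLCA1, a secreted goblet cell protein that acts on chloride channels, had 0.32. The second gene of each of these 4 pairs was named after its value was seen. Several of these values rest on 1 array. SLC26A11 was at -0.22 without suckling array 2 and -0.70 without suckling array 1, and SLC26A6 at 0.046 without weaned array 3. CA4 lay between -0.54 and -0.10 with 1 array left out, and SLC12A4 was at 0.064 without weaned array 4.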

How the data were processed

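Jejunal RNA of 4 weaned and 4 suckling piglets was measured on 1-colour arrays, labelled with Cy3, per the labels' protocols. Agilent Feature Extraction 10.7 made the deposited intensity values per spot, per the submitters' processing notes; the processed intensity is already background-subtracted, per the file headers. A deposited table holds log2 values of the same arrays, whose normalisation is not given in the sources used here; it served as an alternative. The array number limits the precision.

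Control spots and spots flagged as outliers were left out and spots of a probe averaged. The log2 intensity minus the array's 75th percentile was fitted on group alone with lmFit and eBayes (limma 3.58.1, R 4.3.3; two-sided). Benjamini-Hochberg adjustment ran over all 30554 probes that were well above background on at least 4 of 8 arrays with at least 3 values per group, at a threshold of 0.05. Of 43603 non-control probes, 8091 carry a RefSeq accession and 6924 of these matched a symbol in the RefSeq gene list of assembly Sscrofa11.1, from which only names were taken. The genome build behind the array is not given in the sources used here. No sequences are printed.

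The 9 genes, the 9 lists of further transport genes, the 13 lists of cell type markers and the tests were chosen with earlier results of these data known; some transport genes are not reported here. The naming rule took all 7 genes with a probe, the gene with the smallest p from each transport list that had none past the threshold, the 2 most similar genes per member, and defining markers. The alternatives changed the scaling (quantile, median), the background correction (normexp), the source of the values (the deposited log2 table), the filter on dim or outlying spots, the variance model (trended and robust, or array weights), the design (replicate block), the probes averaged per gene and the arrays included, each left out once. A normexp fit that replaced backgrounds marked as outliers by the array median was added after seeing the data. Both normexp fits added an offset of 50 to each corrected signal. Simulated data had 200 of 30554 probes changed in each of 5 runs. There the test recovered 27.8% of log2 changes of 1 and 88% of log2 changes of 2, with 5.7% false calls. The simulated noise was normal, independent between probes and equal in the 2 groups. In the data the SD was larger in suckling piglets for 68.1% of probes, so these rates may not hold for the 7 genes.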

Additional observations from a re-analysis of the deposited data

Results flagged for a closer look

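In 58 groups of 4 values, 1 array stood far from the other 3 in 2 groups, by a gap to the nearest value, divided by the range, above Dixon's 95% critical value. Chance gives about 2.9 such groups for independent normal values. ATP1B1 was lowest in weaned replicate 1 among weaned arrays (0.868), although its 4 weaned values differed little in absolute terms. GUCA2B was lowest in suckling replicate 1 among suckling arrays (0.844). No other test was run on these values.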

How the results depend on the processing

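Under all 20 alternatives 0 of the 7 genes and 0 of the 22 further transport genes passed, with lowest limma adjusted p-values of 0.108 and 0.105. The count of all probes past the threshold, 54, was 0 under the planned normexp run, 324 with array weights, and 9 to 553 with 1 array left out. In the planned normexp run local backgrounds of up to 65246 in suckling array 4 and 17305 in weaned array 1 entered the correction, and the median difference of all probes was -0.10. The log2 75th percentile used for scaling was 10.54 in suckling array 4 and 9.44 in weaned array 1, against 8.62 and 8.53 in the added run. No label says that replicate numbers pair piglets, and deviations of same-numbered arrays correlated at 0.368, 0.0076, 0.186 and -0.018 for numbers 1 to 4; with the replicate block 0 probes passed. Slide as a block could not be fitted.

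Of 29 genes, 12 changed direction under at least 1 alternative, none of them past the threshold; the cause was not tested. The planned normexp run turned SLC9A2 (0.24), ATP1B1 (0.13), KCNMA1 (-0.32), GUCA2B (0.021) and GNAS (0.12). The added normexp run turned KCNMA1 (-0.11), and array weights put SLC9A3R2 at 0.074. The mean over a gene's probes gave SLC9A3R2 0.012, GUCA2B 0.051 and VIPR1 -0.063.

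With 1 array left out the differences ranged from -0.089 to 0.36 for GUCA2A, -0.72 to 0.11 for SLC9A2, -0.40 to 0.036 for ATP1B1, -0.19 to 0.80 for CLCA1, -0.39 to 0.064 for CLIC5 and -0.019 to 0.18 for CA3. They ranged from -0.017 to 0.15 for OXSR1, -0.15 to 0.10 for SLC9A3R2, -0.58 to 0.22 for GUCA2B and -0.15 to 0.49 for KCNMA1. Dim signal limits FXYD2, at 0.13 and 0.0059 in the added and planned normexp runs, SLC26A3, which could not be tested among probes well above background on all 8 arrays, and KCNMA1, which could not be tested under 5 alternatives.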

Other observations

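Lists of cell type markers were summed per array, in units of the array's 75th percentile, to describe the tissue around the transporters; no marker passed the limma test after adjustment over all tested probes. The 9 tested enterocyte markers of 14 summed to 1047 to 2157 in weaned and 618.6 to 3552 in suckling arrays, and 3 general epithelial markers of 6 to 432.9 to 619.1 in weaned and 349.4 to 408.2 in suckling arrays, where the groups did not overlap. In that list KRT8, a keratin of simple epithelia and the brightest of the 3, had a difference of 0.70 (SE 0.19, limma adjusted p = 0.218). EPCAM had -0.043 and CDH1 0.086, and the groups of each of the 3 genes overlapped. Crypt and dividing cells (3 tested of 8) had 12.5 to 22.1 in weaned and 7.06 to 20.2 in suckling arrays, and goblet cells (2 of 6) had 180.3 to 344.3 in weaned and 132.2 to 317.6 in suckling arrays. No marker of BEST4 cells, a rare CFTR-rich epithelial type, had a named probe. The single tested marker of Brunner glands and stomach had 0.0737 to 0.101 in weaned and 0.0433 to 0.123 in suckling arrays.

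Enteroendocrine markers (5 of 7) had 36.3 to 45.1 in weaned and 46.9 to 107.1 in suckling arrays, with no overlap. Their member CHGB, a protein of hormone granules, had a difference of -0.94 (SE 0.21, limma adjusted p = 0.157). The brightest of the 5 were SST, at -0.32, and the hormone gene CCK, at -1.16 (SE 0.33, limma adjusted p = 0.232). CHGA had -0.10 and GCG 0.085, and their groups overlapped, as did those of SST. The groups of CHGB and CCK did not overlap, beside 7.76% of all tested probes. No such share was computed for summed lists. The sums of endothelial markers (4 of 5) also did not overlap, at 10.69 to 11.9 in weaned and 13.2 to 15.1 in suckling arrays. The vessel cadherin CDH5 had -0.40 (SE 0.15, limma adjusted p = 0.346), and its groups did not overlap. Those of PECAM1, VWF and KDR, the other tested markers of that list, overlapped. Leukocyte markers (5 of 7) had 3.74 to 5.55 in weaned and 3.00 to 4.37 in suckling arrays, fibroblast markers (3 of 6) 45.7 to 66.7 in weaned and 52.4 to 84.0 in suckling arrays, and neuron and glia markers (2 of 5) 3.95 to 5.45 in weaned and 3.11 to 4.98 in suckling arrays. The 2 ileal markers summed to 0.220 to 3.64 in weaned and 0.0950 to 0.548 in suckling arrays. The lists of smooth muscle and of enterocytes had 4 of 7 and 9 of 14 markers tested, and the part of any cell type in the transporter values was not tested.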
